A study of Homo sapiens with 9 samples.

Results

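The human mitochondrial genome carries 37 genes, and all 37 were taken as the rows of the count table placed on chromosome MT, out of 58735 genes in the table. They are 13 mRNAs, 2 rRNAs and 22 tRNAs, of which 28 are heavy-strand transcripts (12 mRNAs, both rRNAs and 14 tRNAs) and 9 are light-strand transcripts (MT-ND6 and 8 tRNAs). They were measured in MIA PaCa-2, an established human pancreatic cancer cell line labelled wild type, in 9 bulk RNA libraries. The groups, of 3 libraries each, received SCH772984 (an inhibitor of ERK1/2) at 1 μM, compound 1 (an inhibitor of TBK1 and IKKε) at 1 μM, or the vehicle dimethyl sulfoxide (DMSO) at 0.1%, and RNA was taken after 24 h. No label or method says that the 3 libraries of a group came from separate cultures, so p-values measure only the spread between these libraries.

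Each mitochondrial strand is transcribed as a long polycistronic RNA by the polymerase POLRMT with the factors TFAM and TFB2M. The tRNAs lie between most of the mRNAs and rRNAs, and cutting at both ends of the tRNAs releases the separate RNAs, so the members start from shared precursors and their levels then depend on processing, protection and decay. The 13 mRNAs encode core subunits of the respiratory chain and the ATP synthase, and the rRNAs and tRNAs serve the ribosome that translates them. Several of the mRNAs lack a complete stop codon in the DNA, and the poly(A) tail supplies its missing bases.

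The sequences below, from the GENCODE release 29 transcripts on GRCh38, are shown because the tRNA results are given by strand. A difference between the strands was not tested. The first 4 are the abundant light-strand tRNAs, and the fifth is the abundant heavy-strand tRNA. The sixth is a heavy-strand tRNA with few counts that was lower with SCH772984. The seventh is the mRNA that was called lower with SCH772984, relative to the library. Capitals mark the anticodon in the tRNAs and, in MT-ATP8, the 46 bases that it shares with the start of MT-ATP6. T stands for U of the RNA.
MT-TC, tRNA-Cys (MT:5761-5826, minus strand): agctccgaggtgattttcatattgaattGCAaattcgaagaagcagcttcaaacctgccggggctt
MT-TN, tRNA-Asn (MT:5657-5729, minus strand): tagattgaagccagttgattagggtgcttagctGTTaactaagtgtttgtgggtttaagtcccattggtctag
MT-TY, tRNA-Tyr (MT:5826-5891, minus strand): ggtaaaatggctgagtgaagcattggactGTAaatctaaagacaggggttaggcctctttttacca
MT-TP, tRNA-Pro (MT:15956-16023, minus strand): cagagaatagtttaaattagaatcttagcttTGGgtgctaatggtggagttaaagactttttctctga
MT-TL1, tRNA-Leu (MT:3230-3304, plus strand): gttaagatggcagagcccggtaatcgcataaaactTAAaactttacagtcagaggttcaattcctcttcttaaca
MT-TM, tRNA-Met (MT:4402-4469, plus strand): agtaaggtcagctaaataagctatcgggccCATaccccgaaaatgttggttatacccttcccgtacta
MT-ATP8 (MT:8366-8572, plus strand): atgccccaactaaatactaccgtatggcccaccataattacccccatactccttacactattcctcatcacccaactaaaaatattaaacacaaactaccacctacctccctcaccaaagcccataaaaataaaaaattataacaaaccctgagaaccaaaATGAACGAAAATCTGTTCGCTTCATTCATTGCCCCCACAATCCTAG
The strands differ in base composition. MT-ND6 held 35.6% G and 7.0% C, whereas the 12 heavy-strand mRNAs held 6.3 to 16.2% G and 29.5 to 36.0% C. Among the tRNAs, G made up 23.5 to 36.1% of the light-strand members and 10.3 to 19.1% of the heavy-strand members. Of the 13 mRNAs, 6 have a length that is not a multiple of 3 and end in the first base or bases of a stop codon. The end of MT-ND1 (MT:3307-4262, plus strand), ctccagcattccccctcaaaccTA, and that of MT-ND4 (MT:10760-12137, plus strand), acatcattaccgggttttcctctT, show this, with the partial stop codon in capitals.

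Library totals were 9464432 to 10286223 counts with DMSO, 9652741 to 9840769 with compound 1 and 11056977 to 13887859 with SCH772984. Replicate 1 of compound 1 stood apart from replicates 2 and 3 of its group (chi-square per degree of freedom 11.1 and 8.29, against 2.78 between replicates 2 and 3), and results that rest on it are given with and without it. The SCH772984 libraries were also less alike than the DMSO libraries. Their values were 4.31 (replicates 1 and 2), 6.97 (1 and 3) and 5.37 (2 and 3), against 2.44 to 3.33 with DMSO. Levels below are in CPM, read counts scaled to a common library size with TMM factors. Of 10 ERK output genes, 9 were tested, and all 9 fell with SCH772984 in edgeR's quasi-likelihood test (median log2 fold change -3.58). Over all genes tested, 35.5% were lower. The 9 were DUSP6, SPRY2, SPRY4, SPRED1, SPRED2, ETV4, ETV5, EGR1 and PHLDA1, and DUSP4 (at most 0.883 CPM) was not tested. Some, such as DUSP6 (0 to 0.0844 CPM with SCH772984), were tested only through the DMSO libraries. Of 5 epithelial markers, 3 were tested and the keratins KRT8 and KRT18 fell with SCH772984 (KRT8 from 2415 to 2554 CPM with DMSO to 724 to 818.9), KRT19 did not pass (227.2 to 278.9 CPM with DMSO and 251.6 to 289.2 with SCH772984), and EPCAM was at 0 in all 9 libraries and CDH1 at most at 0.416 CPM. Of 3 fibroblast markers, COL1A1 and COL1A2 rose (COL1A2 from 457.8 to 506.6 CPM to 984.3 to 1114) and DCN was at 0 in 8 libraries. COL1A1 was near the floor, at 0.110 to 0.410 CPM with DMSO and 2.36 to 3.22 with SCH772984. It was tested only through the SCH772984 libraries. VIM, a mesenchymal filament, was called lower with SCH772984 (log2 fold change -0.23). Of 3 endothelial markers, CDH5 fell, from 2.87 to 4.42 CPM to 0 to 0.269, and was tested only through the DMSO libraries, where it was high. The immune markers PTPRC and CD3E were at 0 in all 9 libraries, and CD68 was above 0 only in compound 1 replicate 1 (0.108 CPM). The part of these markers in the results below was not tested. The table holds no spike-in RNA, so levels are relative to the other genes of a library, and a change in mitochondrial RNA per cell cannot be told apart from a change in the rest of the RNA. Without TMM factors, the median gene moved from a log2 difference of 0.03 to one of 0.20 between SCH772984 and DMSO, and the calls over all genes went from 5150 higher and 4916 lower to 6242 higher and 3911 lower.

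Some members cannot be counted apart with certainty. The sources used here do not give the strand setting, so for MT-ND6 and the light-strand tRNAs, reads of the gene cannot be told apart from reads of heavy-strand RNA that runs across it. MT-ATP8 and MT-ATP6 share 46 bases, MT-ND4L and MT-ND4 share 7, and the treatment of reads on more than 1 gene is not given. The tRNA genes are 59 to 75 bases long, and a read counted on one may come from a precursor.

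In the DMSO libraries, the 37 genes took 3.67% ± 0.32 (SD, n = 3) of all counted reads. The 13 mRNAs took 3.01% ± 0.28, the 2 rRNAs 0.641% ± 0.046 and the 22 tRNAs 0.0190% ± 0.0017. Wilson 95% intervals of the mitochondrial share of single libraries reached at most 0.0155 percentage points to either side, which covers counting error only. Per kilobase of gene, the 3 complex IV mRNAs were highest in DMSO. MT-CO3 was at 6745 ± 390 CPM per kb, MT-CO1 at 5412 ± 484 and MT-CO2 at 4933 ± 321, and MT-CO1 and MT-CO2 overlapped between libraries. MT-RNR2, the 16S rRNA, followed at 3964 ± 255, MT-ATP6 at 3472 ± 513, MT-ND2 at 2797 ± 115 and MT-ND4 at 2573 ± 287. MT-RNR2 overlapped with MT-ATP6, and MT-ND2 with MT-ND4. MT-ND1 (2031 ± 195) and MT-ND4L (1968 ± 134) overlapped with each other and were above MT-ND3 (1642 ± 130 CPM per kb) and MT-CYB (1220.2 ± 96.2). At the low end, MT-RNR1, the 12S rRNA (562 ± 74), MT-ND5 (546 ± 95) and MT-ND6 (427.2 ± 90.1) overlapped from one to the next. MT-ATP8 was lowest, at 178.9 ± 27.6 CPM per kb, and did not overlap with MT-ND6. The lowest and the highest of these genes, MT-ATP8 and MT-CO3, lie close together on the heavy-strand transcript, with MT-ATP6 between them.

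**Figure D1:**
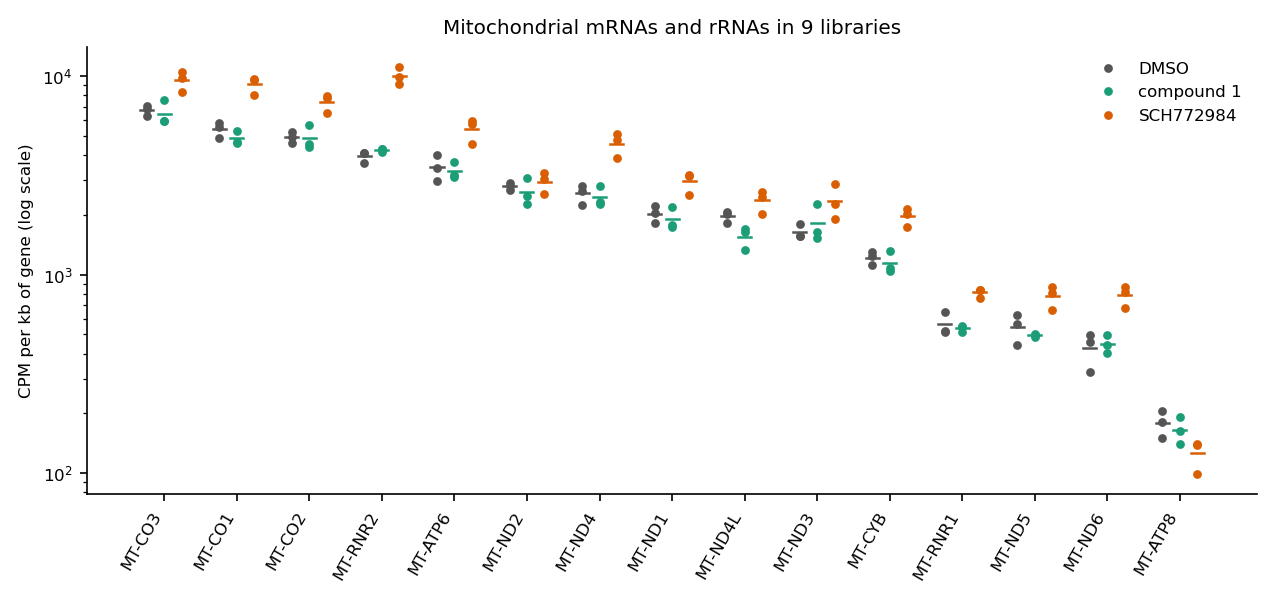
Level of each mitochondrial mRNA and rRNA in CPM per kb of gene (log scale) in the 9 libraries, ordered by the DMSO mean; points are libraries and short lines are means of 3. The SCH772984 points lie above the DMSO points for most genes, overlap with them for MT-ND2 and MT-ND4L, and lie below them for MT-ATP8.

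With SCH772984, most mitochondrial mRNAs, both rRNAs and the abundant light-strand tRNAs rose, while MT-TL1, the only abundant heavy-strand tRNA, did not pass and the other heavy-strand tRNAs had few counts. Of the 37 genes, 31 had enough counts to be tested, and 18 were higher and 2 lower at an adjusted p under 0.05 (edgeR's quasi-likelihood test with Benjamini-Hochberg adjustment over all genes). These are 58.1% and 6.45% of the tested members, and over all 13834 genes tested 72.8% were called, 37.2% higher and 35.5% lower. At an unadjusted p under 0.05, 19 members were higher and 2 lower, against 38.0% and 36.2% of all genes (74.3% in either direction). The groups did not overlap in 19 members that were higher and 3 that were lower, against 38.0% and 36.3% of all genes. Of the mRNAs, 10 rose and 1 fell of 13 (median log2 fold change 0.54, against 0.03 over all genes). Both rRNAs rose. Of 16 tested tRNAs, 6 rose and 1 fell. By strand, 12 rose and 2 fell of 24 tested heavy-strand transcripts (median 0.50), and 6 rose and none fell of 7 tested light-strand transcripts (median 1.10). The count minimum of the filter is 10 counts at the median library size of the 2 groups, scaled by depth to each library. Some tRNAs in these counts reached it only through the group in which they were higher (MT-TE and MT-TT with SCH772984, MT-TM with DMSO). Their calls are therefore not independent of the filter. The 22 members at this depth-scaled minimum in all 6 libraries leave out any member that is low in either group. Among them, 11 rose and 1 fell of 17 heavy-strand transcripts (median 0.52) and 5 rose of 5 light-strand transcripts (median 1.10). The difference between the strands was not tested.

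All 37 genes together took 6.96% ± 0.66 (SD, n = 3) of the counted reads with SCH772984 and 3.67% ± 0.32 with DMSO, and the groups did not overlap (6.23 to 7.52% against 3.33 to 3.98%). The 12 heavy-strand mRNAs went from 2.99% ± 0.27 to 5.11% ± 0.60 and the rRNAs from 0.641% ± 0.046 to 1.77% ± 0.16. MT-ND6 went from 0.0214% ± 0.0046 to 0.0445% ± 0.0056 and the 8 light-strand tRNAs from 0.0157% ± 0.0011 to 0.0417% ± 0.0076. The 14 heavy-strand tRNAs together were at 0.00325% ± 0.00064 with DMSO and at 0.00361% ± 0.00059 with SCH772984, and here the groups overlapped. Most of these counts were of MT-TL1 (162 of 268 in DMSO replicate 1).

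**Figure D2:**
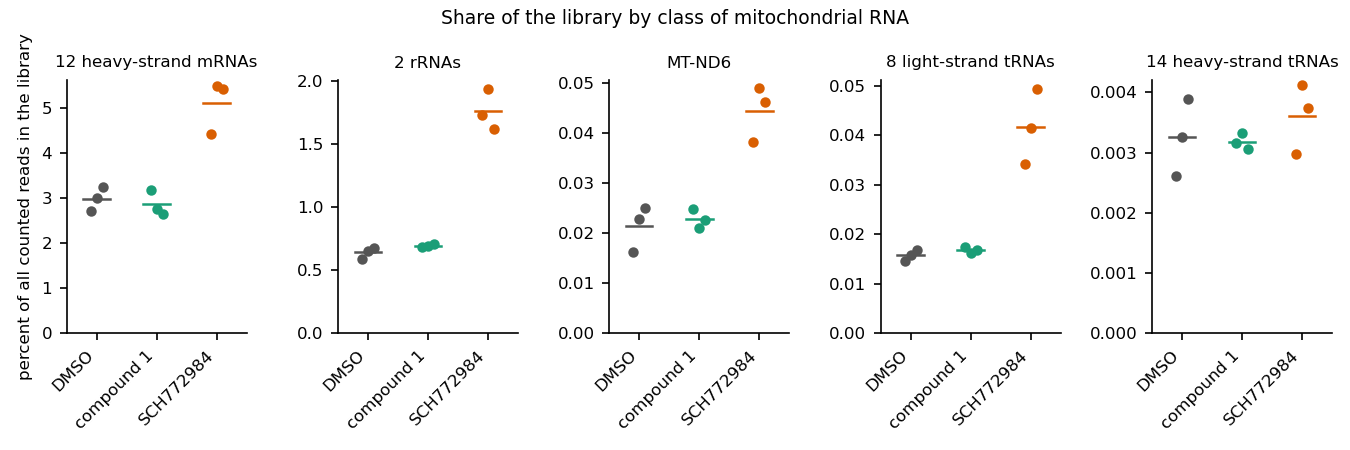
Percent of all counted reads in a library taken by each class, on axes that start at 0; points are the 3 libraries of a group and lines are their means. SCH772984 lies above both other groups in the first 4 panels, by mean 5.11% against 2.99% with DMSO for the heavy-strand mRNAs, and overlaps with them for the heavy-strand tRNAs.

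All 3 complex IV mRNAs rose. MT-CO1, which encodes the catalytic subunit of cytochrome c oxidase, was at 7528, 8521 and 8987 CPM in the DMSO libraries and at 12471, 14973 and 14689 with SCH772984. This was a log2 fold change of 0.75 ± 0.07 (SE), or 1.68-fold, with an adjusted p of 6.18e-12 by edgeR. MT-CO2 was at 3148, 3388 and 3587 CPM with DMSO and at 4462, 5435 and 5345 with SCH772984 (log2 fold change 0.58 ± 0.07). MT-CO3 was at 4951, 5366 and 5548 CPM and then at 6503, 7697 and 8260 (0.50 ± 0.07). In each of the 3, every SCH772984 library lay above every DMSO library. MT-CYB, the only mitochondrially encoded subunit of complex III, did the same, with 1273, 1415 and 1489 CPM against 1976, 2442 and 2321 (log2 fold change 0.68 ± 0.07, adjusted p = 4.74e-11).

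The 7 complex I mRNAs divided, with 5 higher, none lower and 2 that did not pass. MT-ND4 rose most among the heavy-strand members, from 3105, 3662 and 3869 CPM to 5330, 7060.2 and 6547 (log2 fold change 0.83 ± 0.11, adjusted p = 0.000139). MT-ND1 went from 1747, 1961 and 2118 CPM to 2419, 3021 and 3055 (0.54 ± 0.08). MT-ND4L rose less, from 539.3, 601.0 and 613.4 CPM to 603.4, 731.9 and 775.2, and the lowest SCH772984 library lay below the highest DMSO library (log2 fold change 0.26 ± 0.07, adjusted p = 0.00236). MT-ND4L and MT-ND4 are known to share a bicistronic mRNA, and per 100 MT-ND4 counts there were 17.4, 16.4 and 15.9 MT-ND4L counts with DMSO and 11.3, 10.4 and 11.8 with SCH772984, with no overlap. With compound 1 there were 13.1, 15.1 and 12.7, also below all 3 DMSO libraries. MT-ND2 did not pass, at 2792, 2922 and 3031 CPM with DMSO and 2662, 3379 and 3173 with SCH772984 (0.07 ± 0.07, adjusted p = 0.354), and the groups overlapped. MT-ND2 was called higher in 3 alternatives, with a log2 fold change of 0.24 by library size alone (adjusted p = 0.00224) and of 0.15 both with at least 10 counts in every library (0.0487) and without SCH772984 replicate 1 (0.0249). MT-ND5 was higher in all 3 SCH772984 libraries, at 1199.6, 1574 and 1458 CPM against 802.4, 1025 and 1139.9, but missed the threshold (0.51 ± 0.18, adjusted p = 0.0530). MT-ND5 was called higher in 11 of 15 alternatives (log2 fold change 0.36 to 0.68), among them RLE factors (adjusted p = 0.0490), all 9 libraries in one fit (0.000461) and DESeq2 (0.00951). It missed the threshold in the other 4, which include leaving out DMSO replicate 2 or SCH772984 replicate 2 or 3.

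MT-ND3 rose from 619.8, 541.0 and 543.3 CPM to 658.7, 783.8 and 990.3 (log2 fold change 0.51 ± 0.17, adjusted p = 0.0475 by edgeR). The call was lost without DMSO replicate 1, 2 or 3 and without SCH772984 replicate 2 (adjusted p 0.0508, 0.110, 0.140 and 0.0990), where the log2 fold change was 0.45 to 0.56. Without SCH772984 replicate 3 the call held, at a smaller log2 fold change of 0.33. MT-ND6, the light-strand member of complex I, rose from 170.7, 241.9 and 260.2 CPM to 358.9, 457.6 and 431.5 (0.89 ± 0.20, adjusted p = 0.0143). Without SCH772984 replicate 3, the log2 fold change of MT-ND6 was 0.85 and its adjusted p 0.0538.

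The 2 complex V mRNAs, which lie on a single bicistronic RNA and overlap, moved in opposite directions. MT-ATP6, a subunit of the proton channel of the ATP synthase, rose from 2027, 2342 and 2724 CPM to 3102, 4070.1 and 3929 (log2 fold change 0.64 ± 0.15, adjusted p = 0.0118), a call that was lost without SCH772984 replicate 3 (log2 fold change 0.59, adjusted p = 0.0805). MT-ATP8, a small membrane subunit of the same enzyme, fell from 31.07, 37.54 and 42.47 CPM to 29.02, 28.70 and 20.48 (-0.52 ± 0.12, adjusted p = 0.000623), and no SCH772984 library reached a DMSO library. In counts, MT-ATP8 was at 303 to 388 with DMSO and 305 to 349 with SCH772984, so it fell relative to the library and not in counts. Per 100 MT-ATP6 counts there were 1.53, 1.60 and 1.56 MT-ATP8 counts with DMSO and 0.935, 0.705 and 0.521 with SCH772984, a ratio that needs no scaling. Because the capitals in the MT-ATP8 sequence above belong to both genes, reads there may be given to either or to none.

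Both rRNAs rose, by unequal amounts. MT-RNR2 was at 5722, 6405 and 6416 CPM with DMSO and at 15508, 17291 and 14324 with SCH772984, a rise of 1.34 ± 0.07 on the log2 scale or 2.53-fold (adjusted p = 1.25e-21). MT-RNR1 rose from 496.7, 493.7 and 618.1 CPM to 729.0, 802.4 and 802.4 (0.53 ± 0.07, adjusted p = 3.74e-08). The number of MT-RNR2 counts per MT-RNR1 count was 11.52, 12.97 and 10.38 with DMSO and 21.27, 21.55 and 17.85 with SCH772984, with no overlap. The rRNA counts per mRNA count went from 0.207 to 0.216 in the DMSO libraries to 0.297 to 0.389 with SCH772984. Whether and how rRNA was depleted is not stated in the sources used here, which name an mRNA sequencing service.

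The tRNAs had few reads, and 9 of the 22 averaged under 10 counts, with 0 to 22 counts in any library. Only 5 had at least 100 counts in every library: MT-TL1 from the heavy strand and MT-TN, MT-TC, MT-TY and MT-TP from the light strand. The 6 tRNAs that were not tested (MT-TF, MT-TQ, MT-TW, MT-TA, MT-TK and MT-TS2) had 0 to 14 counts. Nothing can be said of their change at this depth.

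All 4 abundant light-strand tRNAs rose with SCH772984 in all 3 libraries. MT-TC was at 64.6, 74.8 and 80.0 CPM with DMSO and at 142.3, 181.1 and 244.2 with SCH772984 (log2 fold change 1.37 ± 0.25, adjusted p = 0.00691). MT-TP was at 35.7, 39.1 and 38.8 CPM and then at 76.7, 97.7 and 92.1 (1.23 ± 0.09, adjusted p = 7.58e-17). MT-TN went from 31.1, 28.1 and 31.9 CPM to 53.6, 60.5 and 80.3 (1.10 ± 0.13, adjusted p = 8.20e-07). MT-TY went from 20.8, 22.1 and 20.6 CPM to 44.1, 44.5 and 41.1 (1.02 ± 0.10, adjusted p = 7.10e-13). MT-TN, MT-TC and MT-TY lie together between MT-ND2 and MT-CO1, and MT-TP lies at the far end of the gene-bearing region, past MT-CYB. In contrast, MT-TL1, the heavy-strand tRNA just after MT-RNR2, was at 16.6, 20.5 and 24.0 CPM with DMSO and 17.1, 26.3 and 22.1 with SCH772984 (0.10 ± 0.14, adjusted p = 0.540), and the groups overlapped.

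The other tRNAs with a mean of at least 10 counts were near the limit of the test. MT-TM had 19, 17 and 16 counts in the DMSO libraries and 6, 13 and 10 in the deeper SCH772984 libraries (log2 fold change -1.30 ± 0.40, adjusted p = 0.00386). It reached the depth-scaled count minimum in all 3 DMSO libraries but in only 1 SCH772984 library, so it was tested because it was high with DMSO. It was not tested where at least 10 counts were asked of every library. MT-TV, MT-TS1, MT-TD, MT-TG, MT-TR, MT-TH and MT-TL2 did not pass, with log2 fold changes from -0.63 to 0.52 and standard errors of 0.32 to 0.43. MT-TH was called lower without DMSO replicate 1 (-0.81, adjusted p = 0.0437). These 7 tRNAs had 5 to 37 counts in the 9 libraries, and a log2 difference of 0.54, the median of the mRNAs, is under 2 of their standard errors. Below 10 counts on average, and so chosen after their values were seen, MT-TE (light strand) had 3, 4 and 2 counts with DMSO and 12, 15 and 14 with SCH772984, and MT-TT (heavy strand, next to MT-TP) had 1, 4 and 9 and then 14, 15 and 22, and both were called higher (adjusted p = 0.00585 and 0.0148). Both were tested only because of their SCH772984 libraries, so these calls are not independent of the filter. MT-TI (heavy strand), the other tRNA under this mean that was tested, had 8, 12 and 9 counts and then 4, 11 and 19, and did not pass (-0.26 ± 0.46, adjusted p = 0.621). Of the tRNAs at the depth-scaled count minimum in all 6 libraries, 4 of 4 from the light strand were higher (median log2 fold change 1.16). From the heavy strand, 0 of 3 were called (median 0.10, for MT-TL1, MT-TH and MT-TV). By this scaling MT-TV reached the minimum with 9 counts in DMSO replicate 2, and MT-TR missed it with 10 in the deeper SCH772984 replicate 1.

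**Figure D3:**
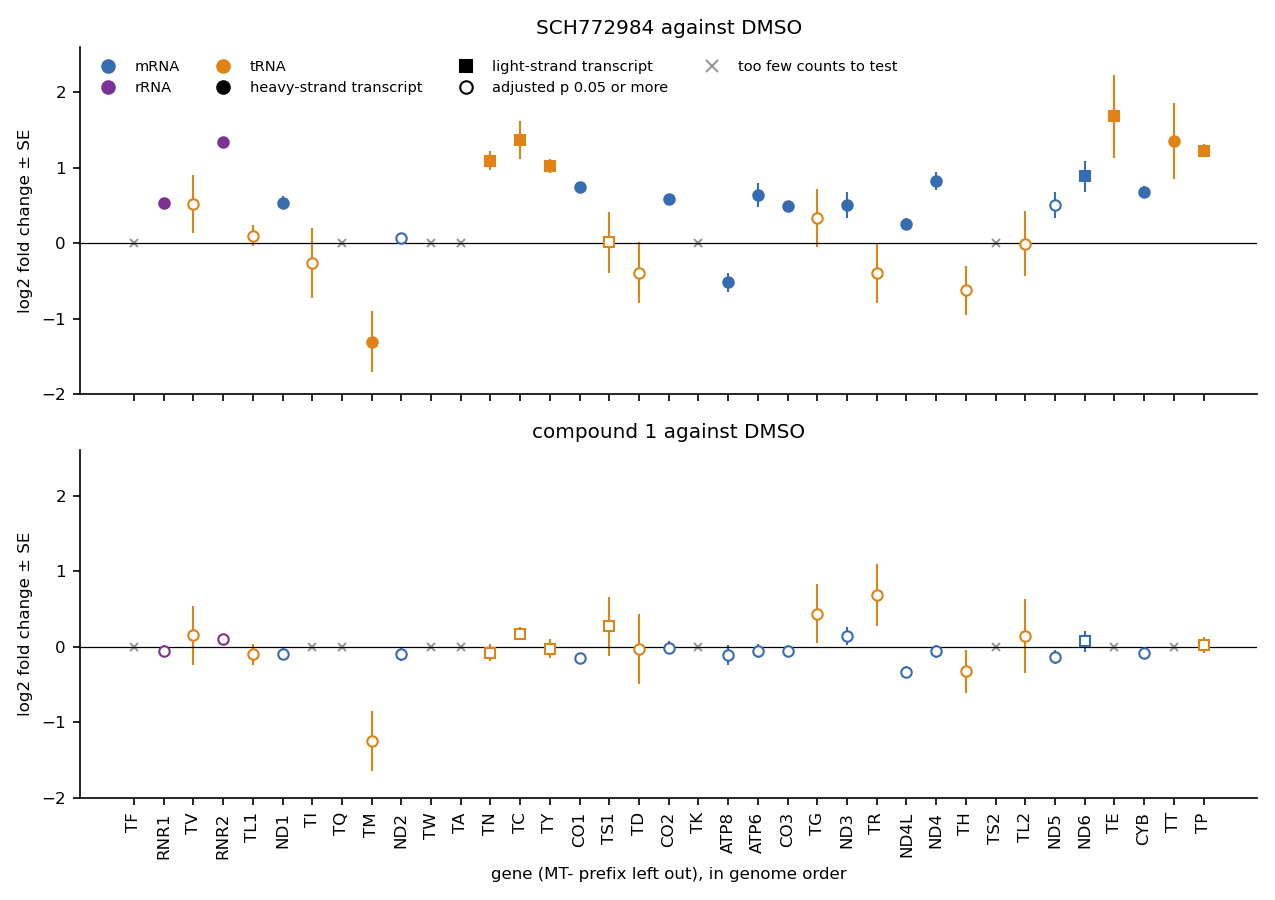
Log2 fold change (± SE) of the 37 genes in genome order, with SCH772984 (top) and compound 1 (bottom) against DMSO; circles are heavy-strand and squares light-strand transcripts, filled where the adjusted p is under 0.05, and crosses at 0 mark genes with too few counts to test. In the top panel all light-strand genes but MT-TS1 that were tested are filled and above 0, whereas no gene is filled in the bottom panel.

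Counts within a library show the strand and class differences without scaling between libraries. Light-strand tRNA counts per 1000 heavy-strand mRNA counts were 5.42, 5.24 and 5.16 with DMSO and 7.73, 7.56 and 9.11 with SCH772984. With compound 1 they were 5.46, 5.93 and 6.30, which is also above all 3 DMSO libraries. Heavy-strand tRNA counts per 1000 heavy-strand mRNA counts were 0.962, 1.084 and 1.196 with DMSO and 0.672, 0.753 and 0.689 with SCH772984. Relative to the mRNAs, the light-strand tRNAs were higher and the heavy-strand tRNAs lower with SCH772984, and neither ratio overlapped between SCH772984 and DMSO. The heavy-strand ratio with compound 1 was 0.992 to 1.205, which overlapped with DMSO. MT-ND6 counts per 100 heavy-strand mRNA counts were 0.598, 0.761 and 0.772 with DMSO and 0.867, 0.894 and 0.854 with SCH772984, and with compound 1 they were 0.780, 0.766 and 0.856, which overlapped with both. Among the 12 heavy-strand mRNAs, the log2 fold change had a Pearson correlation of 0.20 (Spearman 0.18) with the start position, 0.54 (0.52) with length and 0.66 (0.46) with GC content, as a description over 12 genes of the same libraries.

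The make-up of the mRNA counts moved for some genes and not for others. MT-CO1 rose from 26.4% ± 0.2 of the 13 mRNAs' counts with DMSO to 29.2% ± 0.6 with SCH772984, and MT-ND4 from 11.2% ± 0.4 to 13.1% ± 0.5. MT-ND2 fell from 9.26% ± 0.41 to 6.38% ± 0.16 and MT-CO3 from 16.8% ± 0.4 to 15.6% ± 0.6, while MT-CO2 overlapped between the groups (10.7% ± 0.2 and 10.6% ± 0.1). MT-ATP8 went from 0.117% ± 0.008 to 0.0551% ± 0.0147, and MT-ND6 from 0.705% ± 0.096 to 0.864% ± 0.020. These shares are given as a description, with no test.

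**Figure D4:**
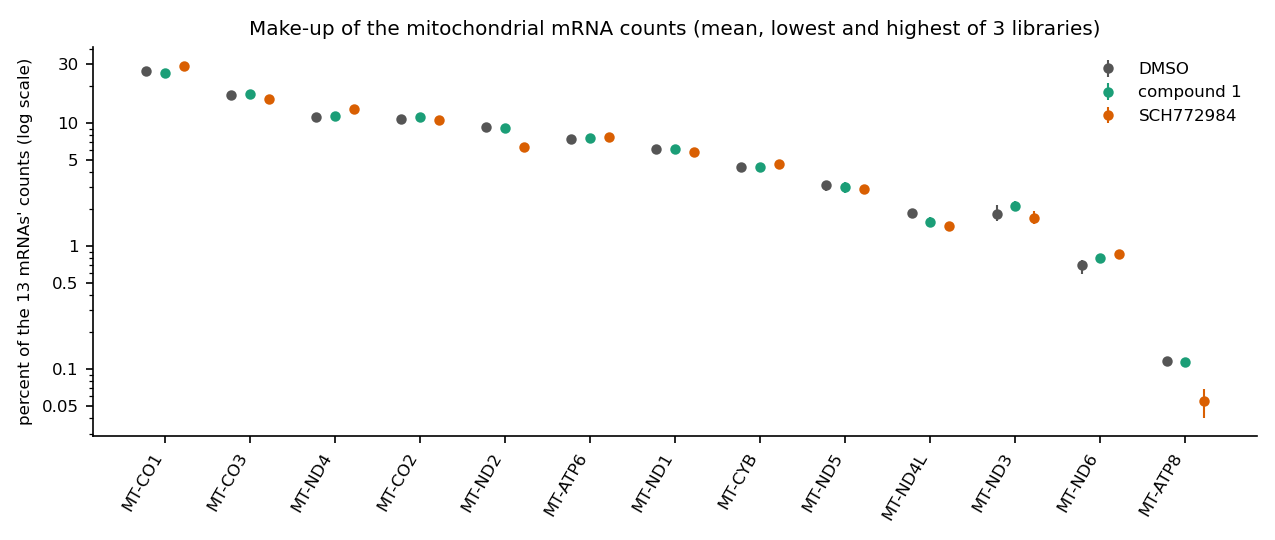
Percent of the 13 mRNAs' counts taken by each mRNA (log scale), as the mean with the lowest and highest of 3 libraries per group. With SCH772984 the points of MT-ND2 (6.38% against 9.26% with DMSO) and MT-ATP8 (0.0551% against 0.117%) lie clearly below the other 2 groups.

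Compound 1 gave no call among the mitochondrial genes. Of 28 tested, 0 were higher and 0 lower at an adjusted p under 0.05 by edgeR, where 0.864% of all 12849 genes tested were called, 0.490% higher and 0.374% lower. At an unadjusted p under 0.05, 2 were lower (MT-ND4L and MT-TM) and 0 higher, against 7.69% and 7.35% of all genes. MT-TM reached the count minimum in 3 DMSO libraries but in only 1 compound 1 library, so it was tested because it was high with DMSO. The groups did not overlap in 2 members that were higher (MT-RNR2 and MT-TC) and in the same 2 that were lower, against 10.3% and 10.6% of all genes (20.9% in all). DESeq2 called 1 lower after adjustment. The mRNAs had a median log2 fold change of -0.09 and ranged from -0.34 to 0.15, with standard errors of 0.07 to 0.14. MT-CO1 was at 8215, 7155 and 7111 CPM with compound 1 (-0.15 ± 0.07, adjusted p = 0.348), and MT-RNR2 was at 6670.2, 6456 and 6715 (0.10 ± 0.06, adjusted p = 0.487). MT-ND4L was lowest, at 504.9, 485.7 and 396.9 CPM, below all 3 DMSO libraries (-0.34 ± 0.08, adjusted p = 0.0732), and it was called lower with DESeq2 (0.0267), with no filter on low counts (0.000437) and without compound 1 replicate 1 (0.0161). MT-TM had 8, 10 and 4 counts (-1.25 ± 0.39, adjusted p = 0.141).

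The result with compound 1 rested on its replicate 1. In that library MT-CO3 was at 5919 CPM and MT-CO2 at 3906, above all 3 DMSO libraries, while in replicates 2 and 3 MT-CO3 was at 4649 and 4677 and MT-CO2 at 3106 and 2998, below all 3. Without replicate 1, 6 mRNAs were lower at an adjusted p under 0.05 (MT-CO1, MT-CO3, MT-ND2, MT-ND1, MT-CYB and MT-ND4L), with log2 fold changes from -0.40 to -0.18. Calls over all genes rose as well, from 63 higher and 48 lower to 453 higher and 798 lower of 13084, or 3.46% and 6.10%. The share of the library taken by all 37 genes was 3.602% ± 0.277 with compound 1, and the DMSO and compound 1 ranges overlapped (3.33 to 3.98% and 3.41 to 3.92%).

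The direct comparison of the inhibitors uses the SCH772984 libraries of the comparison above, so it is not independent of it. Against compound 1, SCH772984 gave 18 higher and 2 lower of 29 tested genes (edgeR), or 62.1% and 6.9%, against 33.7% and 32.6% of all 13863 genes tested (66.3% in all). The 18 include MT-TT and MT-TE, which reached the count minimum in 3 SCH772984 libraries and in 0 compound 1 libraries and so were tested only through the group where they were high. At an unadjusted p under 0.05, 19 were higher and 2 lower, against 35.2% and 33.8% of all genes (69.0% in all). The groups did not overlap in 18 members that were higher and 1 that was lower, against 35.3% and 34.0% (69.3% in all). The mRNAs had a median log2 fold change of 0.64, with 10 higher and 1 lower of 13, and both rRNAs were higher (MT-RNR2 by 1.25 ± 0.09, MT-RNR1 by 0.60 ± 0.08). Over the members at the count minimum in all 6 libraries, 5 of 6 light-strand transcripts were higher (median 1.12), and 11 were higher and 1 lower of 17 heavy-strand transcripts (median 0.61). The 2 lower genes were MT-ATP8 (-0.40 ± 0.14, adjusted p = 0.0174) and MT-TR (-1.07 ± 0.42, adjusted p = 0.0295), both with overlapping groups. MT-TR had 10 to 37 counts and reached the depth-scaled count minimum in all 3 libraries only with compound 1, where it was high. It reached this minimum in 2 SCH772984 libraries. Both calls were lost with scaling by library size alone (adjusted p = 0.110 and 0.0613), and each was lost when certain single libraries were left out. MT-ATP8 was lost without compound 1 replicate 1 or SCH772984 replicate 3 (adjusted p = 0.0525 and 0.140) and also with a minimum of 10 counts in every library (0.0516), and MT-TR without compound 1 replicate 3 or SCH772984 replicate 1 or 2 (adjusted p = 0.237, 0.108 and 0.0994).

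The nuclear genes listed for mitochondrial transcription, RNA processing and decay mostly fell with SCH772984, while most of the mitochondrial mRNAs rose. These lists hold genes that degrade RNA as well as genes that protect it. Over all genes tested with SCH772984 against DMSO, 37.2% were higher and 35.5% lower, beside which the counts of the lists below stand. Of 10 genes listed under mitochondrial transcription, 1 was higher and 6 lower (median log2 fold change -0.59). POLRMT was at 159.5, 140.5 and 145.4 CPM with DMSO and at 99.1, 92.4 and 101.2 with SCH772984 (-0.61 ± 0.07). TFAM, which also packages the mitochondrial DNA, was at 137.4, 141.9 and 136.7 CPM and then at 58.0, 52.1 and 47.4 (-1.41 ± 0.07, adjusted p = 2.36e-21). TFB2M, which opens the promoter, went from 80.8, 91.2 and 77.2 CPM to 37.8, 39.6 and 38.1 (-1.12 ± 0.08). TWNK, which the list holds although it is the helicase of mitochondrial DNA replication, fell by 1.69 ± 0.13, and MTERF2, of the mTERF family, rose by 1.13 ± 0.17. For POLRMT, TFAM and TFB2M every SCH772984 library lay below every DMSO library.

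Of 23 genes of RNA processing and decay, 2 were higher and 17 lower (median -0.45), where 35.5% of all genes were lower. KIAA0391 was at 6.15 to 7.01 CPM with DMSO and 9.79 to 11.75 with SCH772984. FASTK was at 141 to 148.4 CPM with DMSO and 168.4 to 236.2 with SCH772984. LRPPRC and SLIRP, whose proteins form a complex that stabilizes mitochondrial mRNAs, fell by 0.42 ± 0.06 and 0.95 ± 0.08. TBRG4, of the FASTK family of RNA-binding proteins, fell by 1.16 ± 0.06, and PNPT1, the mitochondrial polynucleotide phosphorylase that degrades RNA, fell by 1.02 ± 0.08. Of 18 genes of mitochondrial DNA replication and maintenance, 4 were higher and 11 lower (median -0.48). DNA2 fell by 1.29 ± 0.11, RNASEH1 by 1.14 ± 0.09 and MGME1 by 1.10 ± 0.12, all nucleases. Of 23 genes that modify mitochondrial rRNAs and tRNAs, 1 was higher and 17 lower (median -0.63), with YRDC at -1.55 ± 0.11, PUS1 at -1.22 ± 0.09 and MRM3, a methyltransferase of the 16S rRNA, at -1.15 ± 0.10. Of 12 tested regulators of mitochondrial biogenesis, 1 was higher and 9 lower (median -0.83), with the nuclear receptor ESRRA at -2.03 ± 0.09, MYC at -1.57 ± 0.06 and the coactivator PPRC1 at -1.19 ± 0.07.

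The nuclear partners of the mitochondrial gene products did not move as one. Of 77 tested mitochondrial ribosomal proteins, which assemble with the 2 rRNAs, 3 were higher and 64 lower (median log2 fold change -0.53). Of 74 tested nuclear subunits of the respiratory chain, 16 were higher and 29 lower (median -0.06). Most of them assemble with the 13 mitochondrial proteins, but SDHA, SDHB, SDHC and SDHD belong to complex II, which has no mitochondrially encoded subunit. With compound 1, where 0.864% of all genes were called, 1 gene of the first 5 lists passed, HCFC1, a coregulator (-0.32 ± 0.07, adjusted p = 0.0453), and POLRMT, TFAM, TFB2M, LRPPRC and SLIRP were at -0.16 ± 0.08, -0.04 ± 0.08, -0.01 ± 0.08, -0.08 ± 0.07 and 0.13 ± 0.10. HCFC1 lost its call in 7 of the alternatives, with adjusted p up to 0.284 and log2 fold changes of -0.35 to -0.29. Without compound 1 replicate 1, POLRMT was called lower (-0.21, adjusted p = 0.0281) and HCFC1 kept its call (-0.27, adjusted p = 0.00074).

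**Figure D5:**
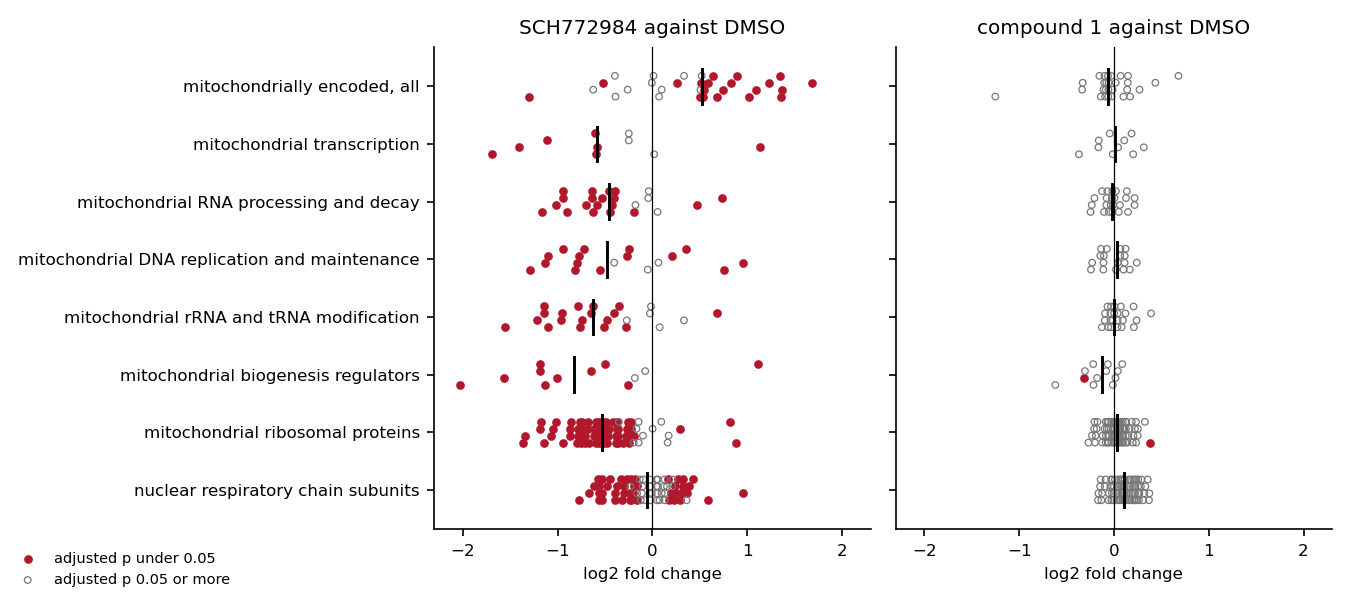
Log2 fold change of each tested gene in the mitochondrial genome and in 7 lists of nuclear genes, with SCH772984 (left) and compound 1 (right) against DMSO; filled points have an adjusted p under 0.05 and black lines are medians. On the left the median of the mitochondrial genes is at 0.52 and those of the first 5 nuclear lists lie from -0.83 to -0.45, while on the right all medians lie between -0.13 and 0.11.

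Nuclear copies of mitochondrial genes share their sequence and can take or give reads. Of 407 such genes in the table, 4 were tested, and MTND2P28 and MTCO1P12, both on chromosome 1, were higher with SCH772984 (log2 fold changes 0.49 ± 0.11 and 1.06 ± 0.23). MTND2P28 is 98.4% identical to MT-ND2 over 1042 aligned bases, MTATP6P1 98.5% to MT-ATP6 over 681, and MTCO1P12 98.7% to MT-CO1 over 1542. Counts of MTND2P28 were 4.10 to 4.23% of those of MT-ND2 in the DMSO libraries and 5.08 to 5.95% with SCH772984. Counts of MTATP6P1 were 5.24 to 6.77% of those of MT-ATP6 with DMSO and 4.36 to 6.17% with SCH772984, and those of MTCO1P12 stayed under 0.4% of MT-CO1 in all libraries. Their part in the values of MT-ND2, MT-ATP6 and MT-CO1 was not tested.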

How the data were processed

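RNA of 9 MIA PaCa-2 samples was sequenced by Novogene. The authors deposited raw read counts per gene, without normalization or filter. The submitters' processing notes name HISAT2 2.0.5, featureCounts 1.5.0-p3 and hg38. The study's methods point to the mRNA sequencing service of that company, and the details of RNA selection and the strand setting are not given in the sources used here. Coordinates of all 37 mitochondrial genes matched GENCODE release 29.

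Each pair of groups was fitted on all genes with edgeR 4.0.16 (robust quasi-likelihood test, R 4.3.3, TMM factors, filterByExpr with a minimum count of 10 and a minimum total count of 15), and p-values were adjusted by Benjamini-Hochberg over all genes tested. The minimum count holds at the median library size of the pair of groups and is scaled by depth to each library. The standard error is the log2 fold change divided by the root of the F statistic. Levels are TMM-scaled CPM over 9 libraries, divided by gene length where genes are compared. The steps were tested on simulated data. The members and nuclear lists were chosen with earlier results of these data known. Named were all mRNAs and rRNAs, tRNAs with a mean of at least 10 counts, up to 3 genes per nuclear list with the largest change among genes with an adjusted p under 0.05 and groups that do not overlap, and always POLRMT, TFAM, TFB2M, LRPPRC and SLIRP. Alternatives were other scalings, filters, thresholds and gene sets, all libraries in one fit, a replicate block, DESeq2 1.42.0 and leaving out each library.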

Additional observations from a re-analysis of the deposited data

How the results depend on the processing

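With SCH772984 against DMSO, 650 of 684 values of a gene under an alternative kept their direction and side of the threshold, 6 lost and 15 gained the call and 13 reversed. With SCH772984 against compound 1 these were 450, 9, 11 and 7 of 477, and with compound 1 against DMSO 457, 7, 10 and 30 of 504. The cause was not tested.

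Scaling by library size alone gave a median mRNA log2 fold change of 0.71 with SCH772984 against DMSO and 0 lower genes against compound 1. A minimum of 10 counts in every library gave 1 lower gene in each of these comparisons, and a rule of at least 2-fold gave 7 higher and 1 lower in each. With compound 1 against DMSO, 1 gene, MT-ND4L, was lower with no filter, 1 with DESeq2, 1 with the replicate block (the same gene in each, adjusted p = 0.0146 with the block) and 2 at an unadjusted p under 0.05. Leaving out single libraries gave 16 to 20 higher and 2 to 3 lower genes with SCH772984 against DMSO, 17 to 20 and 1 to 2 against compound 1, and 0 higher and 0 to 6 lower with compound 1, with 6 only without its replicate 1. The median mRNA log2 fold changes were then 0.48 to 0.63, 0.55 to 0.74 and -0.18 to -0.01. Deviations of same-numbered samples had correlations of -0.08 to 0.11 over all genes, which cannot decide whether the mitochondrial genes were paired by replicate. With the replicate block, MT-ND5 was called higher with SCH772984 against DMSO (log2 fold change 0.51, adjusted p = 1.27e-16 by edgeR). The block took the calls over all genes with compound 1 against DMSO from 63 higher and 48 lower to 193 and 219.

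Reversed log2 fold changes were of values that did not pass in the reported fit. With SCH772984 against DMSO, MT-TL2 went to 0.17 by library size alone, 0.0045 with the replicate block and 0.028 over protein-coding and mitochondrial genes only, and MT-TS1 to -0.024 with no filter. Leaving out single libraries, MT-TL2 lay from -0.39 to 0.30, MT-TS1 from -0.31 to 0.31, MT-TL1 from -0.055 to 0.23, MT-TD from -0.71 to 0.25 and MT-ND2 from -0.0091 to 0.15. Against compound 1, MT-TG went to 0.040 by library size alone, and with single libraries left out MT-TG lay from -0.37 to 0.24, MT-TL2 from -0.53 to 0.17 and MT-TD from -0.67 to 0.14. With compound 1 against DMSO, library size alone gave MT-CO2 0.013, MT-TY 0.0031, MT-TD 0.0001 and TFB2M 0.017. With single libraries left out, the ranges were -0.14 to 0.054 for MT-CO2, -0.15 to 0.0092 for MT-ND4, -0.17 to 0.053 for MT-ATP6, -0.23 to 0.0019 for MT-ATP8, -0.12 to 0.058 for MT-RNR1, -0.042 to 0.25 for MT-ND3, -0.096 to 0.19 for MT-ND6, -0.087 to 0.073 for MT-TP, -0.23 to 0.51 for MT-TL2, -0.16 to 0.082 for MT-TY, -0.23 to 0.032 for MT-TL1, -0.53 to 0.63 for MT-TD, -0.030 to 0.58 for MT-TS1, -0.073 to 0.34 for MT-TV, -0.088 to 0.031 for TFAM and -0.062 to 0.056 for TFB2M. At the depth of these libraries, 9 tRNAs averaged under 10 counts.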
